A study of Mus musculus with 2 samples.

Results

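Cytostatic factor is the activity that holds the ovulated egg at second meiotic metaphase (MII) until fertilisation. The 6 genes described here encode kinases of its cascade (Mos, Map2k1, Mapk3 and Rps6ka1) and the Emi inhibitors of the anaphase-promoting complex (Fbxo43 and Fbxo5). They were chosen by symbol, each matched 1 Ensembl gene of the 36227 in the deposited table, and all 6 lay above a floor of 20 counts (mean of both libraries), as did 10211 genes in all. RNA was measured in naturally ovulated MII oocytes of ICR mice, an outbred strain with no transgene or treatment named in the labels, in 2 libraries. The young library came from females of 3 months and the aged library from females of 12 months, and each held 18 oocytes lysed together, 3 from each of 6 females.

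Mos is a germ-cell kinase made from stored maternal mRNA when meiosis resumes. It phosphorylates MEK1 (from Map2k1), which phosphorylates ERK kinases such as ERK1 (from Mapk3), which in turn phosphorylate RSK kinases such as RSK1 (from Rps6ka1). Eggs of mice without Mos fail to hold the arrest. Emi2, the product of Fbxo43, blocks the anaphase-promoting complex, and so keeps cyclin B and securin from being degraded, until the calcium signal of fertilisation triggers its destruction. Emi1, the product of Fbxo5, is the related inhibitor best known from the mitotic cell cycle.

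The libraries were primed with oligo(dT), so capture began at the 3′ end of each mRNA, and the last 30 bases of the longest protein-coding transcript of each gene are shown for that reason (GENCODE mouse release 21, transcript strand, written as DNA, 5′ to 3′). Capitals mark the polyadenylation signal nearest to the end, searched on the transcript strand as AATAAA or ATTAAA.
Mos: ttttaggaAATAAAgttaccacgaacttca
Map2k1: tcaagttaaAATAAAagggacaagagattt
Mapk3: atataaatatagagatgtgtatatggatga
Rps6ka1: cctttctAATAAActtacaatccagttaaa
Fbxo43: aataATTAAAtttaaaatttacatattttc
Fbxo5: tttgtttagttaaAATAAAtttagaggtgt
A signal was found in every one of these ends except that of Mapk3, and in 63.2% of the ends of 21835 protein-coding genes. AATAAA alone was in 51.5% of them. Mos, whose transcript is a single exon of 1449 bases, had its AATAAA starting 22 bases from the end, after a 3′ untranslated region (UTR) of 126 bases in all. Fbxo43 had the longest UTR of the 6 genes, 1584 bases, and the rarer ATTAAA.

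Stored maternal mRNAs are also regulated by cytoplasmic polyadenylation elements, which are bound by CPEB proteins. Both Emi genes held TTTTAT, a common form of that element, in the last 150 bases, and none of the 4 kinase genes did. The element and its surroundings are shown for these 2 genes, with the element in capitals.
Fbxo43: gtatatatgtgtTTTTATactatacacaca
Fbxo5: aatgtgagttttTTTTATatctgtgaatac
The element started 103 bases from the end in Fbxo43 and 84 bases from it in Fbxo5, and 16.9% of the same 21835 ends held it in a window of that length. Genes above the floor had a median log2 ratio of aged over young of 0.40 with these letters (1871 genes) and 0.44 without (7360 genes). Fbxo43 and Fbxo5, which share them, lay on opposite sides of equality, with 1.43-fold less and 3.05-fold more in the aged library. A match of letters is a description of the annotated sequence, and other forms of the element were not searched. A gene without TTTTAT here, Mos included, may thus carry another form.

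Depth was similar, with 19475110 counts (young) and 18597656 counts (aged). Each age has 1 library, so the spread between animals is unknown and nothing was tested, and intervals are 95% exact (Clopper-Pearson) intervals of the counts that cover counting error only. Amplified reads are not independent molecules, so these intervals are too narrow. In pools of oocytes, less RNA in every oocyte and a loss in some oocytes only cannot be told apart. Priming was with oligo(dT), and the length of poly(A) tails was not measured. Levels are in CPM, the counts divided by their library total and put on a common scale, and a difference is called by size, at least 2-fold. Where a pair of values follows a gene, the young library comes first. The median gene above the floor had a log2 ratio of 0.43, so most genes were higher in the aged library with this scaling. The ratio also fell with the GC content of the transcript, with Spearman's rho of −0.40 across 9902 genes, as a description across genes of the same 2 libraries. All 10 oocyte markers had counts above the floor, with Gdf9 at 97099 and 42795 CPM and Bmp15 at 868 and 586 CPM. Of these markers 8 lay below equality (against 33.6% of all genes above the floor) and 2 above it (against 66.4%). By 2-fold or more 5 were lower (50%, against 10.6%) and 1 higher (10%, against 27.9%). They ran from Figla, 7.87-fold lower, to Nlrp5, 2.54-fold higher. Of 14 cumulus and granulosa cell markers, 5 were at 0 among young and 7 among aged oocytes, Foxl2, Amh and Inhba in both, and their summed level was 29.7 and 64.7 CPM. Cyp19a1 had most of that sum, with 436 and 1056 counts, and Vim had 51 and 0. The 5 luteal and theca markers summed to 2.31 and 0.376 CPM, with Star, Cyp17a1 and Lhcgr at 0 in both libraries. The 5 blood and immune markers summed to 4.36 and 4.62 CPM, nearly all from Cd68. The part of such cells in the results below was not tested.

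Of the 6 genes, 5 had a ratio below equality, against 33.6% of all genes above the floor, and 1 had a ratio above it, against 66.4%. At 2-fold, Map2k1 was the 1 member lower, against 10.6% of all genes. Fbxo5 was the 1 member higher by that rule, against 27.9% of all genes. The median log2 ratio of the 6 genes was −0.54, beside 0.43 for all genes. The 10 oocyte markers had a lower median than the 6 genes, −0.83, and the 100 most abundant genes had a median of −0.36. The part of what these oocyte or abundant genes share in the members' ratios was not tested. Relative to the median gene, Mos joined Map2k1 beyond 2-fold lower (17.3% of all genes) and Fbxo5 was still beyond 2-fold higher (16.0%). On that scale Mapk3 (log2 ratio −0.99) and Fbxo43 (−0.94) lay just inside 2-fold, and Rps6ka1 was at −0.84. The direction of each of the 6 genes was the same under every scaling tried, the correction for length and GC content included.

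**Figure D1:**
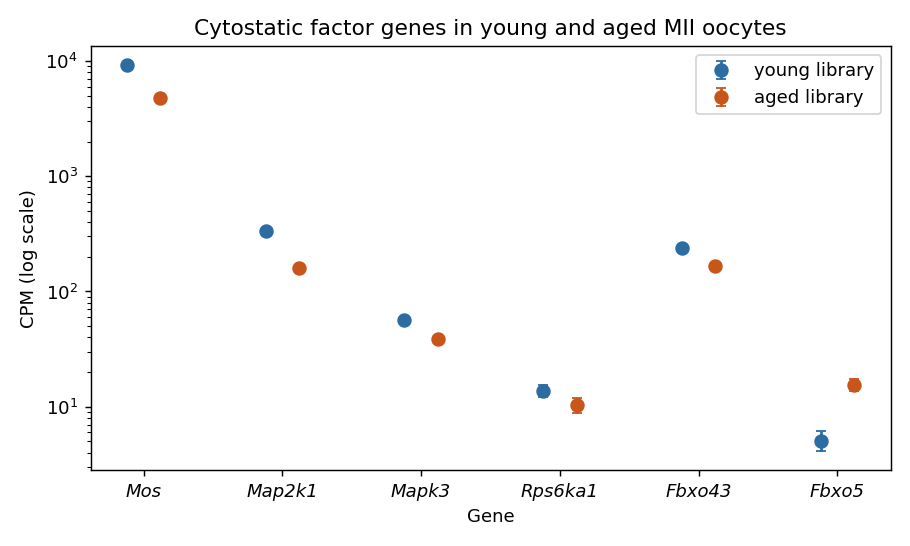
Level of each cytostatic factor gene in CPM, on a log scale, in the young library (blue) and the aged library (orange), with bars for the 95% exact Poisson interval of the counts, which is hidden by the points of the abundant genes. Mos lies far above the rest in both libraries, and Fbxo5 alone has the orange point above the blue one.

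Mos (ENSMUSG00000078365, chromosome 4) was the 9th most abundant gene of the young library and the 20th of the aged one. It had 178037 counts (young) and 87975 counts (aged), which is 9142 and 4730 CPM, or 0.914% and 0.473% of all counts. The level in the aged library was thus 1.93-fold lower, with a counting interval of 1.92 to 1.95, just short of the size rule. This is a log2 ratio of −0.95, or −1.38 after centring on the median gene. High abundance gave Mos a very narrow interval, and the distance to the 2-fold line is smaller than the shift any of the 4 alternative scalings makes. Of the 200 genes closest in mean count, 22 lay lower than Mos and their median ratio was −0.10. These neighbours span mean counts of 13499 to 886392, and their median was itself below that of all genes.

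Per kilobase of transcript, Mos stood at 6309 CPM in the young and 3265 CPM in the aged library. The next of the 6 genes, Map2k1, stood at 138 and 66.1 CPM per kilobase. These counting intervals are far apart, and Mos headed the order in both libraries. The 2 genes most like Mos in level, by distance on the log2(CPM + 0.1) scale over the 2 libraries, were Oas1d (distance 0.24, 7759 and 4787 CPM) and Accsl (distance 0.37, 7412 and 5452 CPM).

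Map2k1 (ENSMUSG00000004936, chromosome 9), which encodes the kinase that Mos phosphorylates, had 6546 counts (young) and 2994 counts (aged), or 336 and 161 CPM. It was 2.09-fold lower in the aged library, with a log2 ratio of −1.06 and an interval of −1.12 to −0.999 that reaches just inside 2-fold. Of its 200 neighbours by mean count 8 lay lower, and their median was 0.32. Mos and Map2k1 kept nearly the same proportion to each other, with 27.2 counts of Mos for each of Map2k1 among young and 29.4 among aged oocytes. No factor common to all genes of a library alters that proportion. Its log2 difference was 0.11, with an approximate 95% counting interval (Woolf) of 0.05 to 0.17. The genes nearest to Map2k1 in level were Bcl7c and Lsr, at distances of 0.07 and 0.11.

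Mapk3 (ENSMUSG00000063065, chromosome 7), the ERK1 gene, had 1108 and 714 counts, or 56.9 and 38.4 CPM. It was 1.48-fold lower in the aged library (interval 1.35 to 1.63), a log2 ratio of −0.57. Of its 200 neighbours by mean count 17 lay lower, and their median was 0.50. Mpg and Ptk2 were nearest to it in level, at distances of 0.04 and 0.07.

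Rps6ka1 (ENSMUSG00000003644, chromosome 4), the RSK1 gene, had 267 and 191 counts, or 13.7 and 10.3 CPM, the lowest level of the 4 kinase genes. It was 1.33-fold lower, and the interval of 1.10 to 1.62 was the widest of the kinases. Among 200 neighbours 35 were lower, with a median of 0.52. The nearest genes in level were Snn and Cdpf1, both at a distance of 0.05. Annotated exons of Rps6ka1 overlap those of the antisense gene Gm12977, which had no count of its own, and the use of strand in counting is not stated. Across the kinases, the log2 ratio was nearer to equality in Mapk3 and Rps6ka1 than in Mos and Map2k1. The proportion of Mos to Rps6ka1 was 667 in the young library against 461 in the aged, a log2 difference of −0.53 (approximate interval −0.80 to −0.27).

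Fbxo43 (ENSMUSG00000048230, chromosome 15), which encodes Emi2, had 4595 counts (young) and 3064 counts (aged), or 236 and 165 CPM. It was 1.43-fold lower in the aged library (interval 1.37 to 1.5), a log2 ratio of −0.52. By mean count, 20 of its 200 neighbours lay lower, and their median was 0.36. Its transcript has 42.6% GC, and the 99 genes of its length and GC bin had a median ratio of 1.10. Reduced by that median the ratio of Fbxo43 was −1.62, beyond 2-fold and the furthest below equality of the 6 genes. Dlgap4 and Cxxc1 were nearest to it in level, at distances of 0.01 and 0.03.

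Fbxo5 (ENSMUSG00000019773, chromosome 10), which encodes Emi1, went the other way, with 99 counts (young) and 288 counts (aged), or 5.08 and 15.5 CPM. It was 3.05-fold higher in the aged library, with an interval of 2.42 to 3.87 that lies beyond 2-fold, as for 18.0% of all genes. No member had an interval beyond 2-fold on the lower side, against 6.35% of all genes. By mean count, 172 of its 200 neighbours lay lower, and their median was 0.45. Its transcript has 45.1% GC, and relative to its length and GC bin, whose median was 0.89, the ratio was 0.72 in place of 1.61, inside 2-fold. The part of base composition in this difference was not tested. Invs had the same 2 counts as Fbxo5, and Klhl14 lay at a distance of 0.03.

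The 2 Emi genes were thus closer in level in the aged library. In the young library 46.4 counts of Fbxo43 were recorded for each of Fbxo5, and in the aged library 10.6, a log2 difference of −2.13 (approximate interval −2.46 to −1.79) that no common scaling alters. Fbxo43 stayed well above Fbxo5, with 58.5 and 40.8 CPM per kilobase against 2.62 and 7.98. The proportion of Fbxo43 to Mapk3 was similar at both ages, with 4.15 counts of Fbxo43 for each of Mapk3 among young and 4.29 among aged oocytes. The interval of that log2 difference, −0.05 for Mapk3 over Fbxo43, was −0.20 to 0.10 and included 0. The same held for Mapk3 against Rps6ka1 (−0.15, interval −0.45 to 0.15) and for Rps6ka1 against Fbxo43 (0.10, interval −0.17 to 0.38). The other 12 of the 15 pairs of members had intervals without 0. These intervals cover counting error only, and the share of such pairs among all genes is not given.

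**Figure D2:**
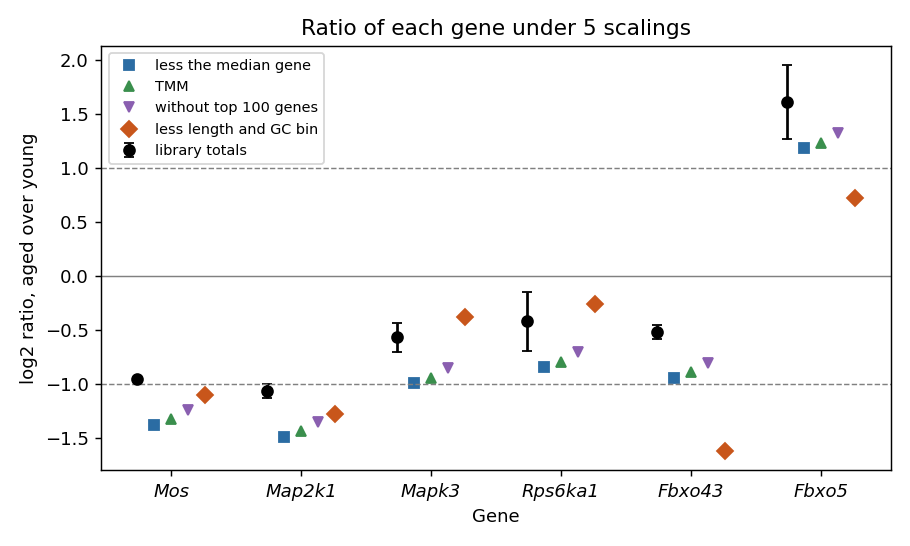
Log2 ratio of aged over young for each gene with library totals (black, with the 95% counting interval) and with 4 other scalings; dashed lines mark 2-fold. The signs are the same throughout, while Mos lies inside 2-fold only with library totals and Fbxo5 only after the correction for length and GC content.

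In order of level per kilobase of the longest protein-coding transcript, Mos was followed by Map2k1, Fbxo43 and Mapk3 in both libraries. Rps6ka1 and Fbxo5 were last, in opposite order in the libraries. Rps6ka1 stood at 4.37 CPM per kilobase (exact Poisson interval 3.86 to 4.93) and Fbxo5 at 2.62 (2.13 to 3.19) in the young library. In the aged library Rps6ka1 stood at 3.28 (2.83 to 3.77) and Fbxo5 at 7.98 (7.09 to 8.96). With that transcript length, no neighbours in the order had overlapping counting intervals in either library, but the spread between animals is unknown.

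**Figure D3:**
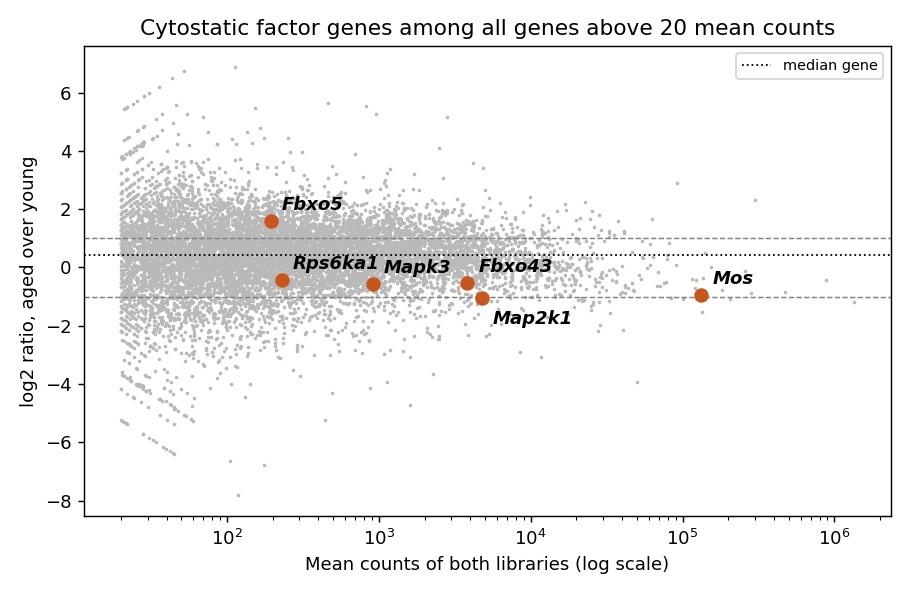
Log2 ratio of aged over young against mean counts of both libraries (log scale) for the 10211 genes above the floor (grey) with the 6 cytostatic factor genes in orange; the dotted line is the median gene and dashed lines mark 2-fold. All of the 6 except Fbxo5 lie below the median gene.

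Close relatives of Map2k1 and Rps6ka1 differed between the families. Map2k2, which encodes MEK2, had 294 and 118 counts and was 2.38-fold lower in the aged library (interval 1.92 to 2.97), the same direction as Map2k1. Map2k1 was the more abundant MEK gene, 22.0 times Map2k2 per kilobase in the young and 25.1 times in the aged library. The ratio between them differed by 0.19 on the log2 scale (approximate interval −0.13 to 0.50), which includes 0.

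Among the RSK genes, Rps6ka6 (RSK4) was the most abundant per kilobase in both libraries. It had 661 and 1560 counts and was 2.47-fold higher in the aged library (interval 2.26 to 2.71). Rps6ka3 (RSK2) had 207 and 473 counts and was 2.39-fold higher (interval 2.03 to 2.83). Rps6ka1 alone of the 3 RSK genes above the floor was lower, while Rps6ka2 (RSK3) had 1 and 0 counts and no fold is given. Rps6ka3 and Rps6ka6 have 40.5% and 39.7% GC, against 57.3% for Rps6ka1, and relative to their bins the 3 ratios were 0.09, 0.13 and −0.26. On that scale the RSK genes lay close together, and the part of base composition was not tested.

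**Figure D4:**
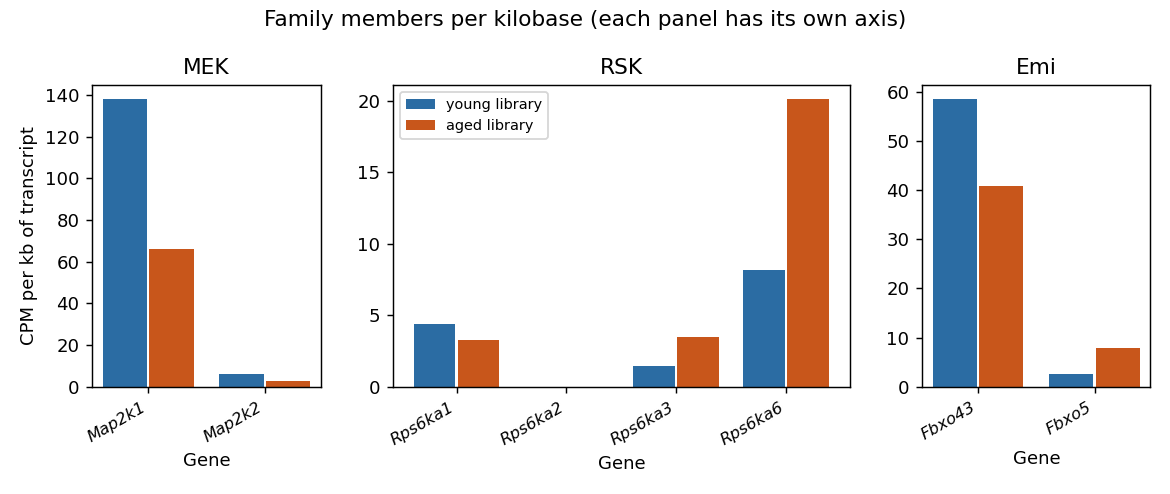
CPM per kilobase of the longest protein-coding transcript for the MEK, RSK and Emi genes in the young (blue) and aged (orange) libraries, 1 library each, with a separate axis from 0 in each panel. In the RSK panel Rps6ka1 is lower in orange while Rps6ka3 and Rps6ka6 are higher; Rps6ka2 had 1 and 0 counts and shows no bar.

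Around the 6 genes, 62 further genes of the pathway were looked up in 6 lists, and 50 of them lay above the floor. In the aged library 13 of these were higher by 2-fold or more (26%, against 27.9% of all genes) and 4 lower (8%, against 10.6%). Their median log2 ratio was 0.55 beside 0.43 for all genes. These shares are near those of all genes. Relative to the median gene 5 were higher (10%, against 16.0% of all genes) and 6 lower (12%, against 17.3%), both below the shares of all genes.

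Of 4 RAF kinases and KSR scaffolds, which feed the same MEK kinases in other cells, none was 2-fold apart with library totals. Of all genes 27.9% were higher and 10.6% lower by that rule. The median of the 4 was 0.43, which became 0.01 relative to the median gene. There 1 of them, Araf, was lower (25%, against 17.3% of all genes) and none higher (against 16.0%). Araf had 42 and 21 counts, a log2 ratio of −0.93 with a wide interval of −1.76 to −0.15. Relative to the median gene its ratio was −1.36, and with TMM −1.31. Without the 100 most abundant genes it was −1.22 and relative to its length and GC bin −1.86, all beyond 2-fold. Ksr2 had 26 and 40 counts, and its interval included equality. Braf had 63 and 93 counts, a log2 ratio of 0.63 that turned to −0.30 relative to its length and GC bin.

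Of the 7 dual-specificity phosphatases that can act on ERK, 2 were above the floor. Dusp7 had 723 and 209 counts and was 3.30-fold lower (interval 2.83 to 3.87). Dusp1 had 4839 and 5305 counts, a log2 ratio of 0.20 that turned negative relative to the median gene (−0.23), with TMM scaling (−0.17), without the 100 most abundant genes (−0.09) and relative to its length and GC bin (−0.06). Dusp2, Dusp4, Dusp5, Dusp6 and Dusp9 lay below the floor, and Dusp4 had no count in either library.

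The list of genes that control Emi proteins or lie beside them on the anaphase-promoting complex had 19 of 23 members above the floor, with 4 higher (21.1%, against 27.9% of all genes) and 1 lower (5.26%, against 10.6%) by 2-fold or more. Its median was 0.38, beside 0.43 for all genes, and −0.05 relative to the median gene, where 3 were higher (15.8%, against 16.0%) and 1 lower (5.26%, against 17.3%). The lower one was Fzr1, an activator of the anaphase-promoting complex, with 1826 and 696 counts, 2.51-fold lower, added after its values were seen. Skp1a and Rbx1, subunits of the SCF ubiquitin ligase that marks Emi proteins for destruction, were 4.26-fold higher (1910 and 7763 counts) and 2.83-fold higher (2013 and 5434 counts). Ppp3cb, a catalytic subunit of calcineurin, was 3.03-fold higher with 67 and 194 counts. Relative to their length and GC bins, the log2 ratios of Skp1a, Rbx1 and Ppp3cb were 1.20, 0.80 and 0.42, with Rbx1 and Ppp3cb inside 2-fold. Camk2g and Plk1, kinases that phosphorylate Emi2 before its destruction, were added after their values were seen. Camk2g had 1660 and 1239 counts, a log2 ratio of −0.36, and was the 1 of 4 CaMKII genes that lay above the floor. Plk1 had 3348 and 4155 counts, a log2 ratio of 0.38 that was −0.05 relative to the median gene. It was 0.004 with TMM, 0.09 without the 100 most abundant genes and 0.50 relative to its length and GC bin.

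Of 15 genes of mRNA polyadenylation and translational control, the processes that act on stored Mos mRNA, 14 lay above the floor, with 6 higher (42.9%, against 27.9% of all genes) and 1 lower (7.14%, against 10.6%) by 2-fold or more. The median was 0.77, and 0.34 relative to the median gene, where 2 were higher (14.3%, against 16.0%) and 1 lower (7.14%, against 17.3%). Dazl, a germ-cell RNA-binding protein gene, was 4.37-fold higher with 3806 and 15875 counts. Cpsf3, the endonuclease of 3′ end processing, was 3.12-fold higher with 127 and 378 counts. Sympk, which encodes the scaffold symplekin, was 4.30-fold lower with 72 and 16 counts. Cpeb1, whose product binds cytoplasmic polyadenylation elements, was 2.58-fold higher with 1368 and 3373 counts, and was added after its values were seen. Its log2 ratio was inside 2-fold relative to the median gene (0.94) and relative to its length and GC bin (0.97).

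Of 9 substrates or partners of these kinases in the egg, 8 were above the floor. With library totals, 1 was at least 2-fold higher (12.5%, against 27.9% of all genes) and none at least 2-fold lower (against 10.6%). Their middle log2 ratio was 0.33, or −0.10 after centring on the median gene. After that centring none was higher (against 16.0%) and 1, Pkmyt1, was lower (12.5%, against 17.3%). Pkmyt1 had 7701 and 4735 counts and was added after its values were seen. Its log2 ratio was −0.64, −1.06 after centring and −1.01 with TMM. It was inside 2-fold without the 100 most abundant genes (−0.92) and against its length and GC bin (−0.47). Wee2, the oocyte kinase that inhibits Cdk1, was 2.46-fold higher with 5314 and 12475 counts. Its log2 ratio was inside 2-fold relative to the median gene (0.87), with TMM (0.92) and relative to its length and GC bin (0.37). Without the 100 most abundant genes it was 1.01. Mapk1ip1 had 65 and 115 counts, a log2 ratio of 0.89 (interval 0.44 to 1.35) that was 0.71 relative to its length and GC bin. Bub1, a checkpoint kinase gene, had 15 and 25 counts, too few for an interval without equality (log2 −0.18 to 1.83). The ratio of Bub1, 0.80, turned to −0.36 relative to its length and GC bin.

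**Figure D5:**
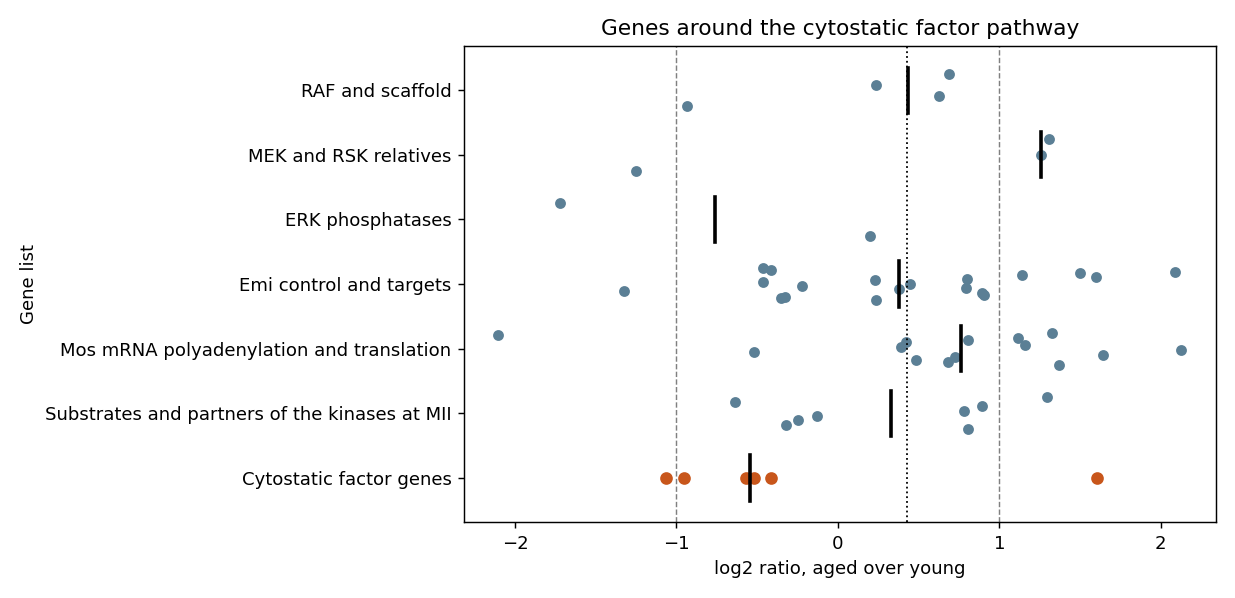
Log2 ratio of aged over young for each pathway gene above the floor, by list (blue-grey), and for the 6 cytostatic factor genes (orange); black bars are medians, the dotted line is the median of all genes and dashed lines mark 2-fold. Only the ERK phosphatases, with 2 genes, and the 6 cytostatic factor genes have medians below 0.

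In the authors' deposited table, 5 of the 6 genes are marked at p below 0.001, all except Rps6ka1, where 50.0% of the genes with a fold change are marked. That column rests on reads of 1 library per age and is no test of age. The scaled log2 values of the authors' deposited table are young over aged and run from −1.61 for Fbxo5 to 1.06 for Map2k1.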

How the data were processed

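Counts per gene, as deposited by the authors, are unnormalized whole numbers for 2 libraries, given for 18364 of 36227 Ensembl genes. Per the labels' protocols, cDNA was primed with oligo(dT), tailed, and amplified by PCR before SOLiD sequencing. The build was mm9 per the submitters' processing notes. The aligner, the counter, the strand setting and the handling of multiply mapping reads are not given in the sources used. The authors' deposited log2 fold change, z score and p-value columns were used only where named.

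Symbols, transcript lengths and GC content came from GENCODE mouse release 21, matching 93.7% of counted genes. That release describes another build, so no coordinates are given. Ratios are log2 of aged over young CPM. A count of 0 was replaced by 3 counts, and genes with a mean of 20 counts were kept. Intervals were tried on simulated Poisson counts, the model they assume. That simulation had no amplification and no spread between animals, so it does not cover these sources of error. Named genes were all members, 2 nearest genes each, their relatives, and up to 3 genes per list with the largest difference. A few list genes are not reported here. Members and lists were chosen with earlier results of these data known. Alternatives were other scalings (TMM from edgeR 4.0.16 in R 4.3.3), 5 counts added, other floors, a 1.5-fold rule and subtraction of the median of 10 by 10 length and GC bins. Scripts used Python 3.11.15 with pandas 2.3.3, scipy 1.17.1 and numpy 2.4.6, and figures used matplotlib 3.10.9.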

Additional observations from a re-analysis of the deposited data

How the results depend on the processing

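At 2-fold, 10.6% of all genes were lower and 27.9% higher with library totals, and 17.3% and 16.0% relative to the median gene. Such shares are not given for the other settings, so the counts there are descriptions only. Members at least 2-fold lower numbered 1 with library totals, 2 (with Mos) relative to the median gene, with TMM, without the 100 most abundant genes and at 1.5-fold, and 3 (Mos, Map2k1 and Fbxo43) relative to the length and GC bin. Members at least 2-fold higher numbered 1, and 0 relative to that bin. Pathway genes at least 2-fold higher numbered 13, 5 with TMM, 5 relative to the median gene, 3 relative to the bin and 25 at 1.5-fold. Their median of 0.55 was 0.52 with 5 counts added, 0.47 with no floor, 0.44 with a floor of 100, 0.27 without the 100 most abundant genes, 0.18 with TMM, 0.13 relative to the median gene and −0.0032 relative to the bin, where the scale itself is centred. By level averaged over both libraries, the order of members per kilobase kept 15 of 15 pairs with mean transcript lengths and 14 without division by length, where Rps6ka1 came above Fbxo5. Within the aged library, CPM put Fbxo43 (165) above Map2k1 (161), the reverse of their order per kilobase of the longest transcript. Mean transcript lengths (2462 bases for Fbxo43 and 2436 bases for Map2k1) also put Fbxo43 above Map2k1 in the aged library. No paired analysis was possible because each age has 1 library. Depth limits Rps6ka1 and Fbxo5 most.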
